A study of Mus musculus with 28 samples.

Results

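Induced hepatocyte-like (iHep) cells made with Foxa1 and Hnf4a were sequenced as 6 libraries, out of 28 in the series, and libraries 4 to 6 are set here against libraries 1 to 3. The labels give all 6 the same description. They were C57BL/6 mouse embryonic fibroblasts, prepared from embryos 13.5 days after conception, that received retroviruses carrying Foxa1 and Hnf4a and were grown to the iHep stage. No label names a culture, an infection, an embryo or a sequencing run, and nothing in the labels separates libraries 4 to 6 from libraries 1 to 3 other than the number in the title. The split was chosen because Rn7sk, Rps29 and the introduced factors were already known to differ across it, so their values are given below as a description, with no test, and every p-value comes from a split that these data had proposed. The libraries may or may not be separate cultures, so the p-values measure the spread between these libraries, which may be technical. All cells carried both viruses, and no cells given an empty virus were analysed here. Where other groups are named they are Foxa3 iHep cells (6 libraries), Foxa2 iHep cells (4), Foxa1 cells at 48 h (2), hepatocytes from mice of 10 weeks (Hep, 2) and the starting fibroblasts (MEF, 2).

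Foxa1 opens closed chromatin at liver enhancers and promoters, and Hnf4a is the nuclear receptor that drives many hepatocyte genes. Together they push fibroblasts to lose mesenchymal traits, take on epithelial ones and switch on part of the liver programme. RNA sequencing of such cells also records traits that belong to the library and not to the cell fate, among them how well short transcripts are retained and how much RNA without a poly(A) tail remains after poly(A) selection. The libraries here came from a stranded mRNA kit.

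Assigned reads numbered 21688990, 17996416 and 22753733 in libraries 4, 5 and 6, and 31216564, 26111617 and 18001889 in libraries 1, 2 and 3. Levels are given in CPM (reads of a gene scaled to a common library size with edgeR), over these 6 libraries unless another scale is named. Across the 13692 genes tested, log2(CPM + 1) correlated between libraries at 0.954 to 0.964 within libraries 4 to 6, at 0.913 to 0.968 within libraries 1 to 3, and at 0.867 to 0.909 across the split. These are correlations across genes, which are not independent replicates. Library 2 stood apart from libraries 1 and 3, with an r of 0.937 to library 1 and 0.913 to library 3, against 0.968 between libraries 1 and 3. It had more epithelial and less matrix RNA than the other members of its set, and counts that it moves are given with and without it. The label "hepatocyte-like" held in part. On the scale of all 28 libraries, Alb, the main plasma protein, stood at 497, 52.7 and 51.8 CPM in libraries 4 to 6 and at 1683, 313 and 350 CPM in libraries 1 to 3, against a mean of 140035 CPM in Hep and 8.16 CPM in MEF. Cps1, which feeds ammonia into the urea cycle, was at most 0.261 CPM in libraries 4 to 6 and at most 3.44 CPM in libraries 1 to 3, against 8754 CPM in Hep. Apoa1 lay above Hep in libraries 4 to 6, at 14551 to 28174 CPM against 6414 CPM. It ran from 3154 to 4646 CPM in libraries 1 to 3. The fibroblast gene Lum was at or near 0 in all 6 libraries, against 133 CPM in MEF. Other fibroblast genes remained. Dcn had 22.4 and 73.6 CPM in libraries 1 and 3 and at most 5.26 CPM in the others, against 70.6 CPM in MEF. Col1a1 had 215 and 209 CPM in libraries 1 and 3 and 16.2 to 41.2 CPM in the others, against 22925 CPM in MEF. The epithelial cadherin Cdh1 ran from 333 to 654 CPM in libraries 4 to 6 and from 522 to 1014 CPM in libraries 1 to 3, against 0.191 CPM in MEF.

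Libraries 4 to 6 differed from libraries 1 to 3 in 3558 of 13692 genes, or 26.0%, at an edgeR adjusted p under 0.05. Of these, 1893 (13.8% of the genes tested) were higher and 1665 (12.2%) lower in libraries 4 to 6. Small noncoding RNAs, ribosomal proteins and respiratory chain subunits were higher in libraries 4 to 6, along with short transcripts in general. Junb, Jun and Jund fell, and the metallothioneins, Id1, B2m and Cdk1 rose, also in a fit that allowed for transcript length. Of 132 tested liver genes 19 changed, in both directions, and 4 of 44 epithelial and 3 of 30 matrix genes changed, beside 26.0% of all genes. The number of calls leaned on single libraries, with 2097, 1942 and 2173 calls without library 4, 5 or 6 and 1776, 3853 and 2351 without library 1, 2 or 3, and 1481 of the 3558 calls stood in all 6 of these fits.

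Short transcripts took a larger share of the reads in libraries 4 to 6. Transcripts under 500 nt took 2.93%, 2.90% and 3.30% of reads in libraries 4, 5 and 6 against 0.687%, 1.13% and 0.568% in libraries 1, 2 and 3, and the ranges did not overlap. Their means were 3.04% ± 0.225 and 0.795% ± 0.297 (SD, n = 3 each), with no test because short transcripts were known to differ when the split was chosen. At the other end, transcripts of 4000 nt or more took 22.4% ± 0.986 of reads in libraries 4 to 6 and 31.9% ± 1.73 in libraries 1 to 3. The transcript length that splits a library's reads evenly was 2310 ± 106 nt in libraries 4 to 6 and 2947 ± 115 nt in libraries 1 to 3, also without overlap.

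The fold change went with length in steps. The median log2 fold change, libraries 4 to 6 over 1 to 3, was 1.57 for 132 genes under 500 nt, 0.83 for 870 genes of 500 to under 1000 nt, 0.29 for 3142 genes of 1000 to under 2000 nt, -0.04 for 5673 genes of 2000 to under 4000 nt and -0.29 for 3875 genes of 4000 nt or more, while the median over all genes was -0.02. Of genes under 500 nt, 75 were called higher and 4 lower, and of genes of 4000 nt or more, 162 were called higher and 678 lower. A fit with a smooth term for transcript length in each library (the length offset) brought the medians of the 5 classes to between -0.06 and 0.11. It called 3059 genes (22.3%), 1475 higher (10.8%) and 1584 lower (11.6%), and 2533 of the first 3558 calls stood in the same direction, 71.2% of them and 82.8% of the calls with the offset. Opposite calls were made for 2 genes.

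**Figure D1:**
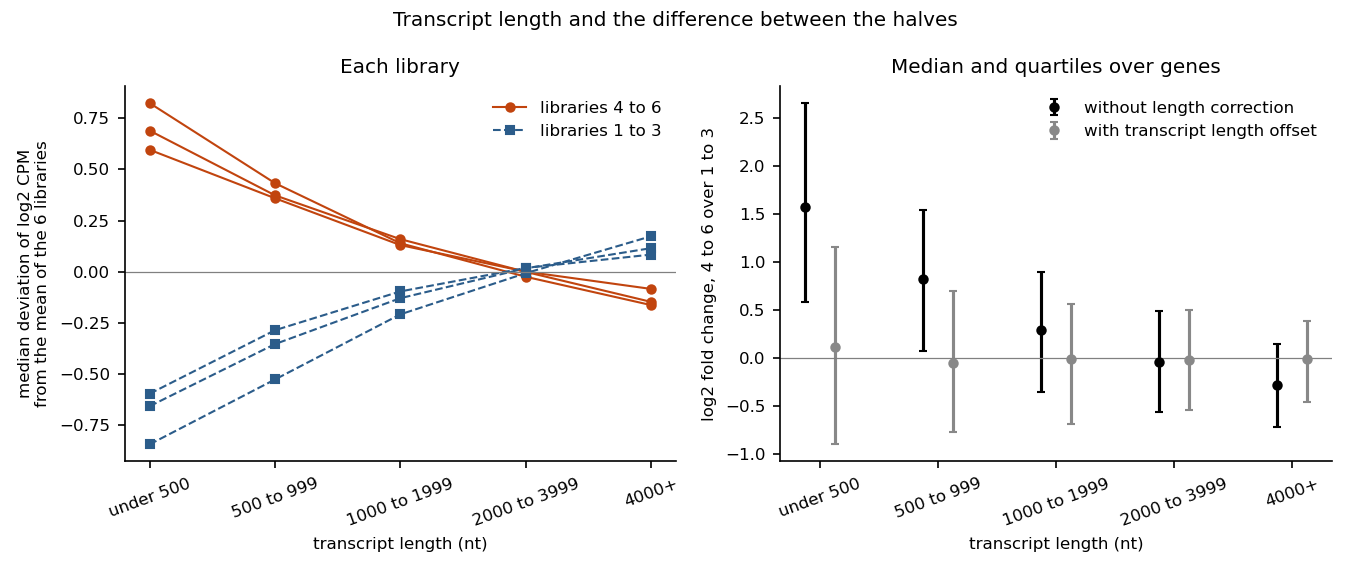
Transcript length and the difference between libraries 4 to 6 and 1 to 3. Left, for each library (circles and solid lines, 4 to 6; squares and dashed lines, 1 to 3), the median over genes of a length class (x axis, nt) of the deviation of log2 CPM from the mean of the 6 libraries (y axis). Right, the median (points) and quartiles (bars) over genes of the log2 fold change, without (black) and with (grey) the length offset. Libraries 4 to 6 lie above libraries 1 to 3 for transcripts under 2000 nt and below them at 4000 nt or more, and the offset brings the class medians to between -0.06 and 0.11.

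Several small noncoding RNAs without a poly(A) tail were far higher in libraries 4 to 6. Rn7sk, the RNA that holds the elongation kinase P-TEFb inactive, read 50.2, 73.1 and 57.3 CPM in libraries 4 to 6 and 1.03, 0.783 and 0.256 CPM in libraries 1 to 3. Rn7s1 and Rn7s2, near-identical copies of the signal recognition particle RNA whose reads may be split between them, stood at 133 ± 39.4 and 132 ± 40.0 CPM in libraries 4 to 6 and at 0.680 ± 0.326 and 0.536 ± 0.242 CPM in libraries 1 to 3 (adjusted p = 0.00116 for each). Rmrp, the RNA of RNase MRP, had 10.1, 16.7 and 13.7 CPM against 0.0608, 0.196 and 0 CPM. Rpph1, the RNA of RNase P, had 34.5, 44.2 and 41.0 CPM against 6.63, 7.87 and 7.54 CPM, a rise of 2.44 ± 0.17 (SE) on the log2 scale (adjusted p = 0.00129). Of 803 small noncoding RNA genes searched by name, 741 were at 0 in all 6 libraries and 18 were tested. Of these, 11 were called higher (background 13.8%) and 1 lower (12.2%). Rn7sk, which helped choose the split, is among the 11, and without it 10 of 17 were called higher and 1 lower. The filter keeps a gene with enough reads in a single set. Members near 0 in libraries 1 to 3, such as Rmrp, were therefore tested through their level in libraries 4 to 6. This favours calls in that direction, so the counts are a description only. With the length offset 8 of the 18 were higher (background 10.8%) and 5 lower (11.6%), and Rpph1 kept a rise of 0.69 (adjusted p = 0.0449).

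Genes for cytosolic ribosomal proteins took 9.97% ± 1.72 of reads in libraries 4 to 6 and 4.49% ± 0.227 in libraries 1 to 3 (SD, n = 3 each), given with no test. Without Rps29 the tested members took 9.89% ± 1.70 and 4.48% ± 0.227. Rps29, which helped choose the split, had 979, 971 and 706 CPM against 28.3, 33.4 and 27.5 CPM. Rps27 had 897, 1006 and 579 CPM against 36.2, 41.4 and 34.5 CPM, and Rpl26, which also binds p53 mRNA, had 1166, 1371 and 1008 CPM against 139, 148 and 113 CPM. Counting Rps29, 68 of 84 tested members were called higher (background 13.8%) and none lower (12.2%) in the 6 libraries. The list's median log2 fold change was 1.62, and each replicate left out gave 61 to 70 called higher. Without Rps29, 67 of 83 were called higher, with a median of 1.61. The difference varied with length within the list. All 17 members with transcripts under 500 nt were called higher, with a median of 2.66, where 56.8% of all tested genes of that length were. Of 19 members of 1000 nt or more 13 were called higher, with a median of 1.33. Rpl5, with 1804, 2294 and 1446 CPM against 2153, 2137 and 1986 CPM, overlapped between the sets (log2 fold change -0.18 ± 0.21, adjusted p = 0.563). Rps2 read 2467, 2251 and 1430 CPM against 3116, 4293 and 2796 CPM and did not pass (adjusted p = 0.102). Rps15a, which the files give a 5158 nt transcript, had 1024, 1165 and 802 CPM against 267, 342 and 230 CPM (log2 fold change 1.83 ± 0.23, adjusted p = 0.00419).

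With the length offset, 48 ribosomal protein genes were called higher (background 10.8%) and 3 lower (11.6%), and the list's median was 0.89 against -0.02 over all genes. Rps27, at 370 nt, then kept a log2 fold change of 2.85 (adjusted p = 0.00181), while Rpl38, also at 370 nt, was left with -0.02 (adjusted p = 0.926). Rpl38 had 551, 591 and 516 CPM in libraries 4 to 6 against 208, 181 and 165 CPM in libraries 1 to 3. Their start regions are shown because they have the same listed length and differed in fold change. The windows run from 130 bases before to 20 after the start that RefSeq annotates on GRCm38.p6, with any CTTTCC in capitals, letters typical of the pyrimidine tract at which ribosomal protein mRNAs begin.
Rps27, chr3:90213629-90213778, minus strand: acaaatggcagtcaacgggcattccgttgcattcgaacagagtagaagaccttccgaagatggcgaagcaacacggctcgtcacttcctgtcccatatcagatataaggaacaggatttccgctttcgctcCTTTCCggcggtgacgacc
Rpl38, chr11:114668450-114668599, plus strand: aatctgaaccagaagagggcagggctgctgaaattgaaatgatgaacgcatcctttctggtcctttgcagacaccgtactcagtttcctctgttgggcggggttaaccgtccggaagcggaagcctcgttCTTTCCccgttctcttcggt
Both hold CTTTCC at the annotated start, on the strand of the gene. Searched on both strands, these letters lie in 13.5% of 32851 RefSeq windows of this length, and a match is a description of the sequence only.

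Mitochondrial proteins made in the nucleus also varied with length, and the lists differed for long transcripts. At 1000 nt or more, 19 of 44 mitochondrial ribosomal genes were called higher and none lower, with a median log2 fold change of 0.60. Of 19 respiratory subunits of that length 8 were called higher and 3 lower, with a median of 0.03. Of 78 tested mitochondrial ribosomal protein genes, 44 were called higher (background 13.8%) and 1 lower (12.2%), with a median log2 fold change of 0.85. Mrpl33 had 120, 140 and 121 CPM against 13.6, 18.1 and 10.9 CPM (log2 fold change 3.16 ± 0.22, adjusted p = 0.00129), while Mrpl50, with a 2103 nt transcript, had 97.0, 109 and 84.5 CPM against 97.1, 108 and 82.2 CPM. Of 74 tested subunits of the respiratory chain and ATP synthase, 44 were called higher (background 13.8%) and 4 lower (12.2%), with a median of 0.86. Ndufa7, a complex I subunit, had 169, 183 and 161 CPM against 24.2, 23.2 and 18.7 CPM (log2 fold change 2.95 ± 0.16, adjusted p = 0.00116). Atp5b, the catalytic subunit of ATP synthase and a longer transcript of 1879 nt, had 772, 896 and 806 CPM against 1296, 2020 and 1368 CPM (log2 fold change -0.92 ± 0.22, adjusted p = 0.0261). The length offset took the respiratory list to 15 higher and 15 lower with a median of -0.11, and the mitochondrial ribosomal list to 28 higher and 5 lower with a median of 0.32. With it, 10.8% of all genes were called higher and 11.6% lower. Histone genes, whose replication-dependent transcripts are short and lack a poly(A) tail, had 4 of 39 members called higher (background 13.8%) and 4 lower (12.2%). With the length offset none was higher and 7 were lower by edgeR, with a median of -0.86. H2bc7 had 2.03, 3.92 and 5.76 CPM against 0.122, 0.626 and 0.256 CPM (adjusted p = 0.0202, and 0.0888 with the offset), and H2ac20 had 1.39, 0.981 and 1.38 CPM against 5.74, 4.70 and 6.77 CPM (adjusted p = 0.00884). The filter kept H2bc7 through its level in libraries 4 to 6, which favours a rise.

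**Figure D2:**
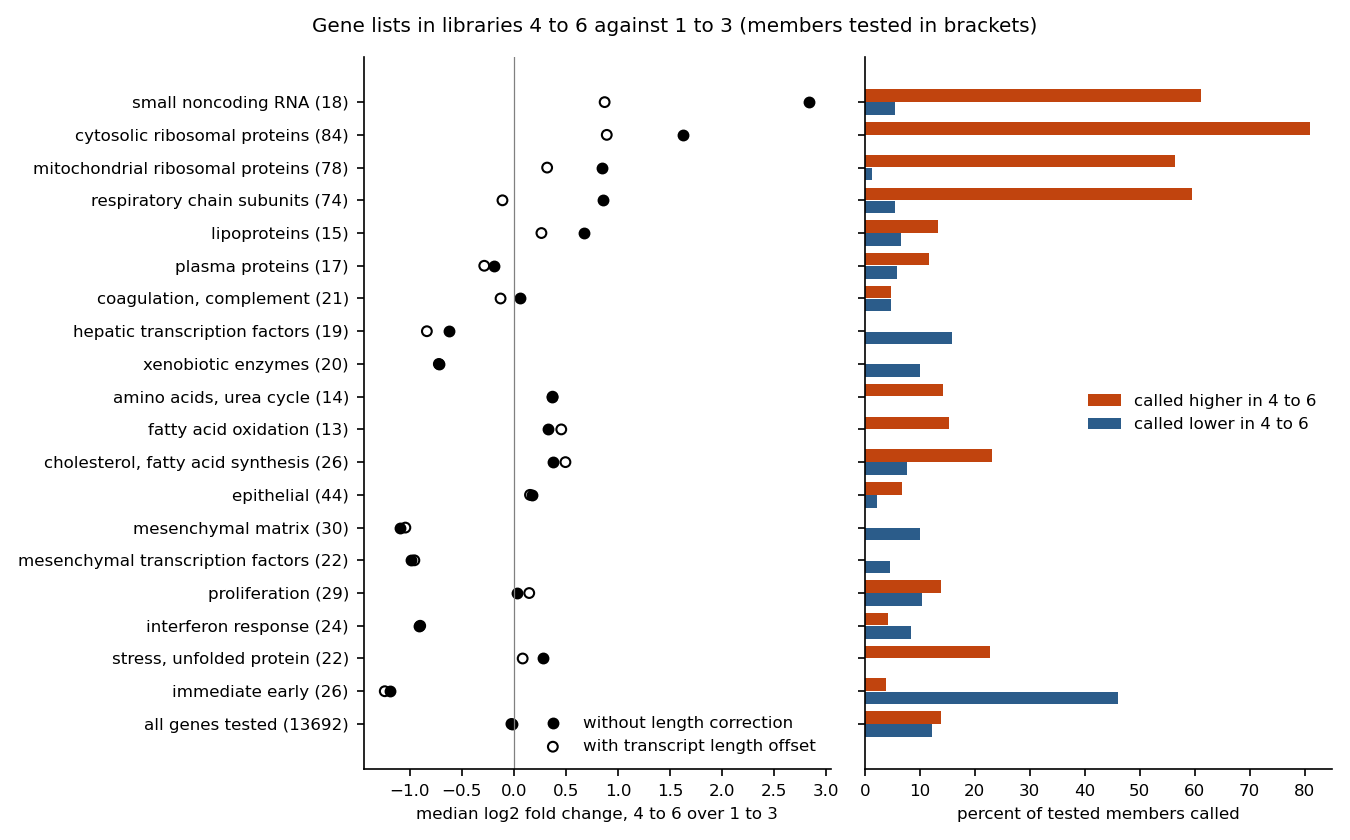
Gene lists in libraries 4 to 6 against libraries 1 to 3. Left, the median log2 fold change of the tested members (x axis) without (filled) and with (open) the length offset. Right, the percent of tested members called higher (orange) and lower (blue) at an edgeR adjusted p under 0.05 without the offset. The 4 lists of small noncoding RNAs, ribosomal proteins and respiratory subunits lie at medians of 0.85 or more before the offset, and the immediate early list has 12 of 26 members called lower.

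The introduced factors differed in balance. Foxa1 stood at 740, 504 and 544 CPM in libraries 4 to 6 and at 1779, 1343 and 3404 CPM in libraries 1 to 3. Hnf4a stood at 516, 722 and 387 CPM against 257, 313 and 107 CPM. The sets did not overlap for either factor, with Foxa1 lower and Hnf4a higher in libraries 4 to 6. Per length, the authors' FPKM gave an Hnf4a to Foxa1 ratio of 0.508, 1.05 and 0.518 in libraries 4 to 6 and of 0.105, 0.170 and 0.0230 in libraries 1 to 3. Reads from the virus and from the cell's own gene cannot be told apart in these counts. Foxa2 and Foxa3, the related factors used in other groups, stayed under 1 CPM in all 6 libraries.

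Liver genes went both ways, and Apoa1 carried most of the difference in their summed level. Over 9 liver lists, 132 of 206 genes were tested, 11 were called higher (background 13.8%) and 8 lower (background 12.2%), and the median log2 fold change was 0.03. The summed level of the 132 was 32756, 54527 and 33493 CPM in libraries 4 to 6 and 17983, 16958 and 18607 CPM in libraries 1 to 3. Without Apoa1 it was 17297, 24185 and 15174 CPM against 14887, 12321 and 14458 CPM. With the length offset 8 were called higher (background 10.8%) and 8 lower (11.6%). Without library 2, 18 were called higher (background 14.3%) and 15 lower (13.1%). Leaving out any other library gave 4 to 7 higher and 3 to 6 lower, in fits that called 1776 to 2351 of all genes. In RNA from whole cultures, fewer cells of a type and less RNA per cell cannot be told apart.

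Among secreted liver proteins, Apoa1, the main protein of HDL particles, had 15458, 30342 and 18319 CPM in libraries 4 to 6 and 3097, 4637 and 4149 CPM in libraries 1 to 3. That is a log2 fold change of 2.43 ± 0.34 (adjusted p = 0.00541), and it held in every fit that left out a library and with the length offset (1.79, adjusted p = 0.0120). Serpina1a and Serpina1b, protease inhibitors of blood plasma, also rose. Serpina1a had 1000, 1259 and 476 CPM against 58.9, 123 and 63.9 CPM (log2 fold change 3.48 ± 0.49, adjusted p = 0.00586), and Serpina1b had 3898, 4327 and 1819 CPM against 199, 714 and 400 CPM (2.94 ± 0.57, adjusted p = 0.0152). They are near-identical copies, so the reads may be split unevenly between them. Kng1, the kininogen of the contact system, had 1873, 2207 and 1038 CPM against 286, 30.7 and 228 CPM (adjusted p = 0.0333), but was called in only 1 of the 6 fits that left out a library. Apob, the protein of VLDL and LDL, went the other way with 65.1, 41.8 and 11.4 CPM against 215, 531 and 141 CPM (log2 fold change -2.91 ± 0.78, adjusted p = 0.0386), and was no longer called with the length offset (adjusted p = 0.0663). Cp, the copper carrier ceruloplasmin, fell to 392, 274 and 236 CPM in libraries 4 to 6 against 808, 579 and 893 CPM in libraries 1 to 3 (adjusted p = 0.0149). Cfb, complement factor B, fell to 58.7, 48.6 and 98.9 CPM against 509, 730 and 304 CPM (log2 fold change -2.90 ± 0.43, adjusted p = 0.00672).

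The start regions of Apoa1 and Serpina1b, which rose, and of Apob, which fell, are shown because Foxa1 is a forkhead factor. Windows are as above, on GRCm38.p6, and capitals mark TGTTTNC, the core of a forkhead site, on either strand.
Apoa1, chr9:46228500-46228649, plus strand: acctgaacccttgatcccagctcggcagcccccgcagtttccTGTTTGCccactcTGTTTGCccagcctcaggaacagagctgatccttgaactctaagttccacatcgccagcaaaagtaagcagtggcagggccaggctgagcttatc
Serpina1b, chr12:103738170-103738319, minus strand: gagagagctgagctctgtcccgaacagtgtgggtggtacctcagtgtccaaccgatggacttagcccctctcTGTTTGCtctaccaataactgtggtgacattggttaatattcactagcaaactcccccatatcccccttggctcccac
Apob, chr12:7977547-7977696, plus strand: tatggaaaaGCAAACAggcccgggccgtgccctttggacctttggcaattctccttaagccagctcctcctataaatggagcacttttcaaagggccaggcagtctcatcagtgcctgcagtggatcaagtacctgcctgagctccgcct
Apoa1 held 2 matches and the other windows 1 each, and 10.1% of the 32851 windows hold at least 1. The letters were present in genes that were higher and in a gene that was lower in libraries 4 to 6.

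Of 19 tested hepatic transcription factors, 3 were called lower (background 12.2%) and none higher in the fit of the 6 libraries. Atf5 was called in all 6 fits that left out a library, Gata4 in 3 and Prox1 in 0. Atf5, a leucine zipper factor abundant in liver, had 20.04, 13.1 and 13.3 CPM against 71.0, 87.7 and 80.3 CPM (log2 fold change -2.36 ± 0.22, adjusted p = 0.00205). Gata4, an endoderm factor, had 10.6, 15.8 and 14.1 CPM against 31.0, 81.1 and 31.0 CPM (adjusted p = 0.0282), and Prox1, a hepatoblast factor, had 2.36, 3.92 and 3.75 CPM against 7.60, 12.3 and 7.64 CPM (adjusted p = 0.0284). Among enzymes, Acaa1b, a peroxisomal thiolase named after its values were seen, had 8.68, 10.6 and 13.03 CPM against 3.43, 3.25 and 2.61 CPM (adjusted p = 0.00774). Fah, of tyrosine breakdown, had 44.7, 34.3 and 23.9 CPM against 9.60, 20.3 and 9.43 CPM (adjusted p = 0.0443). Fbp1, of gluconeogenesis, had 5.45, 5.33 and 0.580 CPM in libraries 4 to 6, and 0.0912, 0 and 0 CPM in libraries 1 to 3, where 3 reads in all were counted. Ugt1a1 and Cyp1b1, enzymes of xenobiotic metabolism, were called lower, with 0.670 ± 0.356 and 9.39 ± 4.35 CPM in libraries 4 to 6 against 5.80 ± 4.45 and 73.8 ± 48.9 CPM in libraries 1 to 3 (adjusted p = 0.0383 and 0.0283). Ugt1a1 shares exons with the other Ugt1a genes, so its reads are uncertain. Of 5 tested bile acid genes none was called in that fit and 1 was higher without library 2. Of 21 coagulation and complement genes 1 was called higher (background 13.8%) and 1 lower (12.2%), and without library 2, 3 higher (14.3%) and 6 lower (13.1%). Between the sets, Fgb, Ahsg and Apoe overlapped. Of the 19 liver calls, 6 (31.6%) stood in every fit that left out a library, beside 41.6% of all calls. Among the 6 were Apoa1, Serpina1a and Acaa1b, higher, and Atf5 and Cfb, lower.

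Genes of cholesterol and fatty acid synthesis were called higher in 6 of 26 cases (background 13.8%) and lower in 2 (12.2%). The length offset left 3 higher (background 10.8%) and 0 lower (11.6%). Without library 2, 9 were higher (background 14.3%) and 1 lower (13.1%). Dhcr7, the last enzyme of cholesterol synthesis by one route, had 32.3, 41.6 and 36.1 CPM against 15.1, 18.4 and 13.1 CPM (log2 fold change 1.24 ± 0.19, adjusted p = 0.00695). Sc5d, the sterol desaturase before it, had 74.0, 111 and 108 CPM against 35.6, 44.8 and 29.4 CPM (adjusted p = 0.00879). Acaca, the acetyl-CoA carboxylase that starts fatty acid synthesis, went lower, with 42.6, 46.8 and 53.1 CPM against 84.6, 79.1 and 101 CPM (adjusted p = 0.0106), a 9054 nt transcript that was no longer called with the length offset (adjusted p = 0.0685). The rate-setting Hmgcs1 varied within the sets, with 208, 400 and 509 CPM against 202, 638 and 246 CPM.

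**Figure D3:**
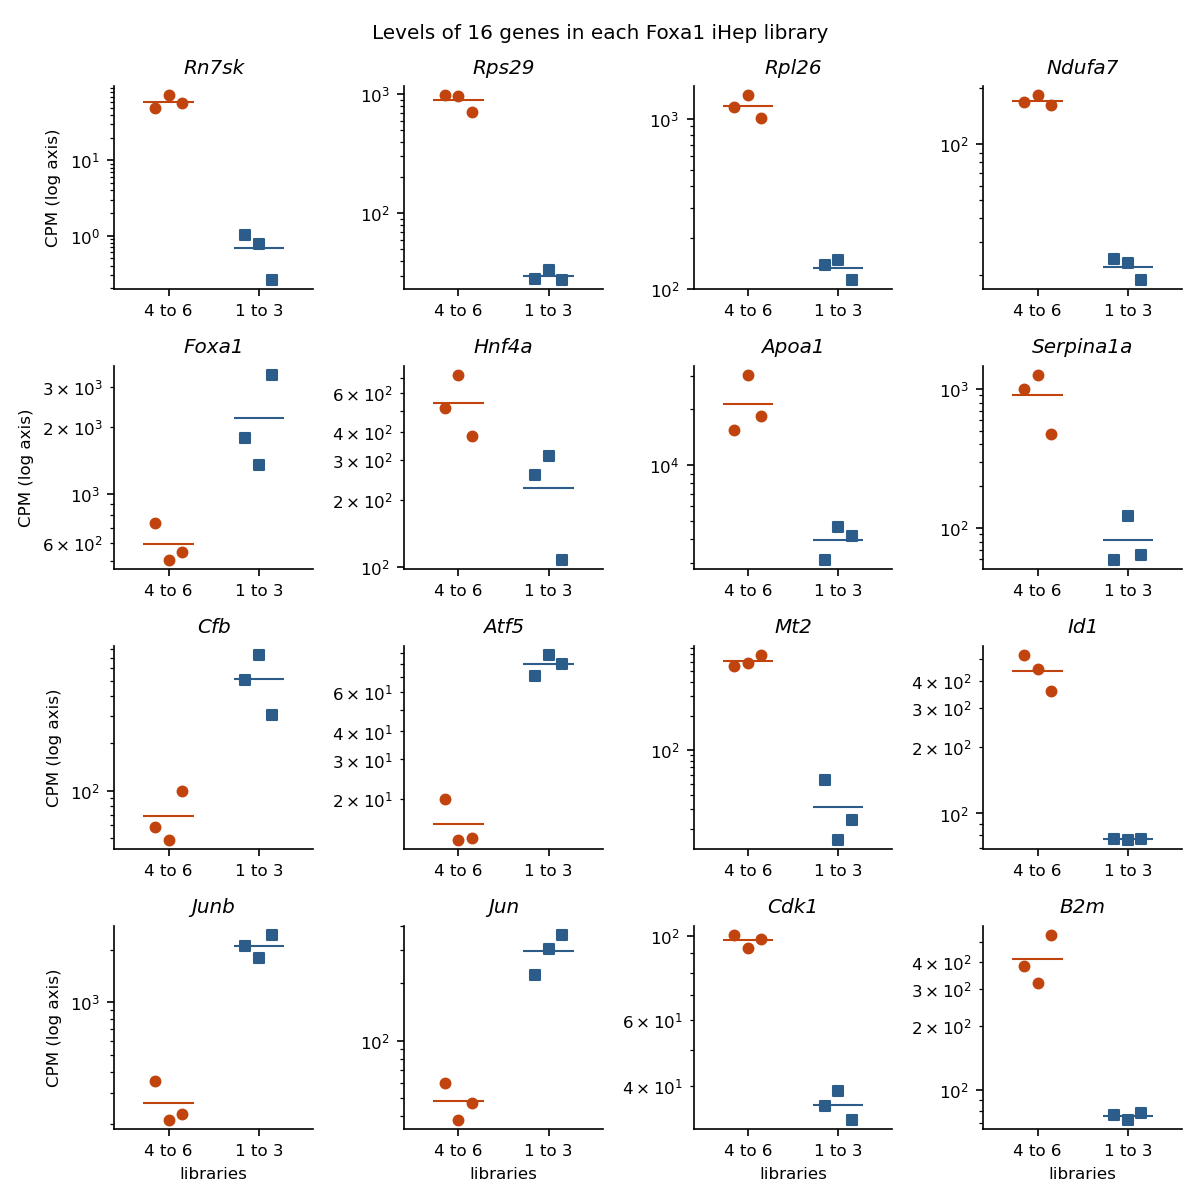
CPM (log axis) of named genes in each Foxa1 iHep library, libraries 4 to 6 (circles, left) and 1 to 3 (squares, right) in the order of their numbers, with the mean of each set as a line. Each panel has its own range, so distances cannot be compared between panels. For all the genes shown the sets do not overlap, as with Junb at 212 to 351 CPM against 1787 to 2427 CPM. The genes were picked for display, Rn7sk, Rps29, Foxa1 and Hnf4a helped choose the split, and 46.2% of all 13692 genes tested do not overlap.

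Epithelial genes did not separate the sets. Of 44 tested, 3 were called higher (background 13.8%) and 1 lower (12.2%), and the median log2 fold change was 0.18. None of the 4 calls stood in every fit that left out a library, beside 41.6% of all calls. Krt8, a keratin of simple epithelia, had 521, 773 and 2361 CPM in libraries 4 to 6 and 706, 2784 and 308 CPM in libraries 1 to 3. Crb3, a polarity protein, had 7.62, 7.66 and 26.2 CPM against 0.912, 1.06 and 0.103 CPM (log2 fold change 4.29 ± 0.93, adjusted p = 0.0210), and Ovol2, a repressor of mesenchymal genes, had 4.85, 2.70 and 5.67 CPM against 1.19, 0.548 and 0.359 CPM (adjusted p = 0.0237). The filter kept both through their level in libraries 4 to 6, which favours calls in that direction. Mal2, a transcytosis protein, was also higher (adjusted p = 0.0467), and Cgn, the tight junction protein cingulin, lower with 135, 154 and 252 CPM against 373, 581 and 334 CPM (adjusted p = 0.0341). The summed level of the 44 ran from 5114 to 11923 CPM in libraries 4 to 6, and was 6185, 16282 and 3672 CPM in libraries 1, 2 and 3, so that library 2 held the highest value of the 6. Against libraries 1 and 3 alone, 9 of 44 were called higher and none lower by edgeR, where 27.4% of 14048 genes were called in either direction, 14.3% higher and 13.1% lower. They included Cldn3, a claudin, with 134, 192 and 263 CPM in libraries 4 to 6, 34.3 CPM in library 2, and 3.799 and 0.923 CPM in libraries 1 and 3.

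Mesenchymal matrix genes were called lower at a share near that of all genes, and their median was lower in libraries 4 to 6. Of 30 tested, 3 were called lower (background 12.2%) and none higher (13.8%) by edgeR, with a median log2 fold change of -1.10. Against libraries 1 and 3 alone, 9 were called lower (background 13.1%). Without library 1 it was 1, and without library 5 or library 6 it was 0. Col1a2 had 12.8, 8.09 and 12.5 CPM against 77.0, 18.002 and 65.4 CPM (log2 fold change -2.26 ± 0.55, adjusted p = 0.0287), against a mean of 9688 CPM in MEF on the scale of all 28 libraries. Col5a1 had 29.6, 9.99 and 21.1 CPM against 380, 64.1 and 395 CPM (adjusted p = 0.0186), and Loxl1, a collagen crosslinker, had 7.25, 3.74 and 4.33 CPM against 47.0, 15.8 and 28.4 CPM (adjusted p = 0.0127). Fn1, fibronectin, had 1133, 900 and 651 CPM against 4644, 778 and 4994 CPM and overlapped through library 2 (adjusted p = 0.0796, and 0.00526 without library 2). The summed level of the 30 was 5068, 2094 and 1773 CPM in libraries 4 to 6 and 8898, 2500 and 8837 CPM in libraries 1, 2 and 3. With the length offset 4 were called lower (background 11.6%). Of 22 mesenchymal transcription factors, Foxc1 alone was called (background 26.0%), with 9.38, 7.36 and 8.17 CPM against 35.1, 16.4 and 16.9 CPM (adjusted p = 0.0265). Without library 2, 5 were called lower (background 13.1%). Of 31 Hox genes, which mark position along the body, none was called by edgeR in the fit of the 6 libraries (background 26.0%). Without library 2, 1 was called higher (background 14.3%) and 4 lower (13.1%).

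**Figure D4:**
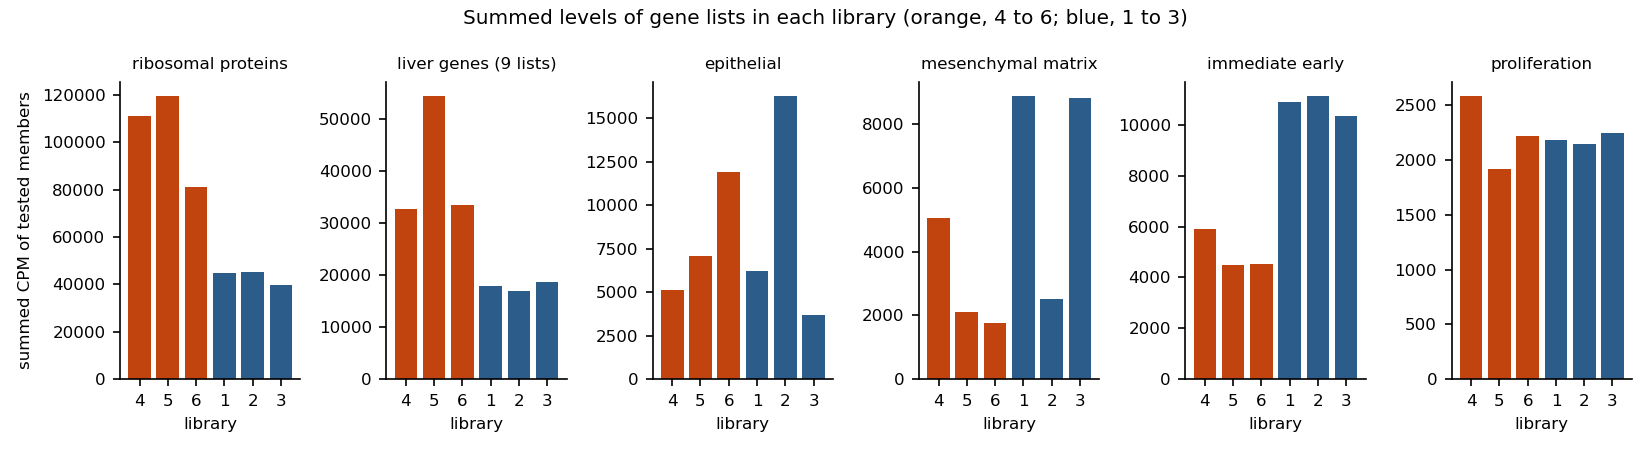
Summed CPM of the tested members of 6 gene lists (y axis, from 0) in each Foxa1 iHep library (x axis; orange, libraries 4 to 6; blue, libraries 1 to 3). Ribosomal protein and immediate early sums separate the sets, while library 2 holds the highest epithelial sum, at 16282 CPM, and a matrix sum of 2500 CPM, close to those of libraries 5 and 6.

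Many immediate early genes were called lower in libraries 4 to 6. This list holds transcription factors and feedback regulators induced within minutes of growth or stress signals. Of 26 tested, 12 were called lower (background 12.2%) and 1 higher (13.8%), with a median log2 fold change of -1.18. The length offset left 11 lower (background 11.6%) and 1 higher (10.8%). Junb, a subunit of AP-1, had 351, 212 and 229 CPM in libraries 4 to 6 and 2088, 1787 and 2427 CPM in libraries 1 to 3 (log2 fold change -2.99 ± 0.27, adjusted p = 0.00202). Jun had 59.6, 38.3 and 46.9 CPM against 223, 303 and 360 CPM (-2.61 ± 0.26, adjusted p = 0.00245), and Jund had 178, 176 and 198 CPM against 495, 780 and 445 CPM (-1.64 ± 0.24, adjusted p = 0.00643). Ier5, named after its values were seen, averaged 118 ± 37.4 CPM against 487 ± 191 CPM (adjusted p = 0.0127). These 4 of the 12 falls (33.3%) stood in every fit that left out a library, beside 39.1% of all lower calls. Myc was the member that rose, with 199, 255 and 265 CPM against 113, 118 and 89.4 CPM (log2 fold change 1.17 ± 0.18, adjusted p = 0.00728). Ccn1 and Ccn2, matricellular targets of growth signals, overlapped between the sets. The list had 7 members lower without library 1, 6 without library 5 and 5 without library 6, and the summed level was 5889, 4491 and 4548 CPM against 10906, 11157 and 10359 CPM.

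Stress genes rose in 5 of 22 cases (background 13.8%) and none fell in the fit of the 6 libraries (12.2%). Without library 2 there were 7 higher (background 14.3%) and 3 lower (13.1%). Mt2 and Mt1, metallothioneins that bind zinc and copper, led them. Mt2 had 555, 583 and 689 CPM against 53.4, 15.8 and 23.6 CPM (log2 fold change 4.30 ± 0.50, adjusted p = 0.00386), and Mt1 had 335, 492 and 593 CPM against 84.5, 44.3 and 36.4 CPM (3.10 ± 0.40, adjusted p = 0.00480). Both have short transcripts of 556 and 583 nt, and with the length offset their log2 fold changes were 3.12 (adjusted p = 0.00955) and 1.99 (adjusted p = 0.0160). Their windows, on GRCm38.p6, are shown with TGCACNC in capitals on either strand, one form of the metal response element core TGCRCNC (R is A or G). The TGCGCNC form was not searched, and where it occurs it is unmarked.
Mt1, chr8:94178959-94179108, plus strand: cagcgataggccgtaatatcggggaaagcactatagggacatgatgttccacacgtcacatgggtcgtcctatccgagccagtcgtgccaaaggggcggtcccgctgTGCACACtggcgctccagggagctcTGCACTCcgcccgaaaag
Mt2, chr8:94172488-94172637, plus strand: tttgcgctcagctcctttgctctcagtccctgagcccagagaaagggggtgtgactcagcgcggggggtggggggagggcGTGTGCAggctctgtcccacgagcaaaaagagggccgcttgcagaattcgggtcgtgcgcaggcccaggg
Mt1 held 2 matches to TGCACNC and Mt2 1, and 6.10% of the 32851 windows hold at least 1, which is not a count of all metal response elements. The other 3 rises belong to the amino acid and unfolded protein responses. Atf4, their shared transcription factor, had 299, 342 and 393 CPM against 148, 169 and 160 CPM (log2 fold change 1.11 ± 0.15, adjusted p = 0.00531). Asns, asparagine synthetase, averaged 109 ± 36.9 CPM against 29.9 ± 18.04 CPM (adjusted p = 0.0358), and Hspa5, the chaperone BiP, had 1530, 2935 and 2866 CPM against 1048, 1078 and 1264 CPM (adjusted p = 0.0324). Asns and Hspa5 were each called in 1 of the 6 fits that left out a library. The related chaperone Hsp90b1 averaged 1395 ± 239 and 1323 ± 97.0 CPM and overlapped.

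In the interferon list most values lay lower in libraries 4 to 6 and few passed the test. B2m, the light chain of MHC class I, had 384, 321 and 538 CPM against 76.5, 72.6 and 78.2 CPM (log2 fold change 2.45 ± 0.22, adjusted p = 0.00202). Irf7 and Cxcl10 were called lower (adjusted p = 0.0489 and 0.0458), but in 1 and 0 of the 6 fits that left out a library. The median of 24 genes was -0.91, and 10 had lower values in libraries 4 to 6 without overlap, where 22.5% of all genes did. The fit with the length offset called 4 lower (background 11.6%) and 1 higher (10.8%). In the TGF-beta list, Tgfb1, the ligand, had 32.9, 23.0 and 28.03 CPM against 72.8, 81.4 and 60.8 CPM (-1.36 ± 0.19, adjusted p = 0.00560). Id1, an inhibitor of helix-loop-helix factors, had 523, 450 and 358 CPM against 76.5, 75.8 and 76.9 CPM (2.54 ± 0.18, adjusted p = 0.00129), and 1.84 with the length offset (adjusted p = 0.00325). The receptor Tgfbr2 averaged 368 ± 46.2 and 372 ± 33.0 CPM.

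Of 29 proliferation genes, 4 were called higher and 3 lower, near the background of 13.8% and 12.2%, and Mki67 averaged 254 ± 64.3 and 217 ± 15.9 CPM. Cdk1, the kinase of mitotic entry, had 101, 93.1 and 98.6 CPM against 35.5, 38.9 and 32.6 CPM (log2 fold change 1.45 ± 0.13, adjusted p = 0.00202). Ube2c, the ubiquitin-conjugating enzyme of mitotic exit, had 119, 89.4 and 91.8 CPM against 14.4, 18.7 and 26.8 CPM (adjusted p = 0.00344). Bub1b, of the spindle checkpoint, went the other way with 45.6, 30.3 and 39.7 CPM against 66.9, 73.9 and 78.6 CPM (adjusted p = 0.0152). Among cell cycle inhibitors, Rb1 had 70.1, 56.0 and 51.8 CPM against 22.5, 21.0 and 23.4 CPM (1.41 ± 0.16, adjusted p = 0.00332), and Trp53 averaged 101 ± 19.9 against 49.3 ± 4.78 CPM (adjusted p = 0.0109). Cdkn2b was called lower (adjusted p = 0.0154).

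Markers of other cell types gave few calls. Summed CPM of the intestinal list ran from 1010 to 5367 in libraries 4 to 6 and from 390 to 5355 in libraries 1 to 3, of the stomach list from 353 to 1019 and from 164 to 862, of the lung list from 17.8 to 567.96 and from 7.94 to 42.9, and of the leukocyte list from 52.3 to 159 and from 24.8 to 76.4. The endothelial list ran from 23.1 to 26.9 and from 16.6 to 29.1, the stellate list from 12.8 to 42.0 and from 10.6 to 56.6, the muscle list from 6.50 to 8.52 and from 7.26 to 10.8, and the erythroid list from 0.625 to 0.736 and from 0.578 to 2.05. Of 17 leukocyte markers, 8 were at 0 in all 6 libraries, and of 9 erythroid markers, 6. In the 6-library fit no intestinal, stomach, lung, leukocyte, endothelial, stellate or erythroid marker was called by edgeR. Without library 2, 3 of 10 intestinal markers were called higher (background 14.3%), namely Cdx2, Vil1 and Tff3, with 1 stellate marker higher and 1 endothelial marker lower. Tff3, a mucosal peptide, had 520, 1203 and 4076 CPM in libraries 4 to 6 and 182, 1272 and 152 CPM in libraries 1, 2 and 3. Of 4 tested muscle markers Mylpf was called higher, with 4.48, 2.39 and 5.89 CPM against 0.972, 1.45 and 1.13 CPM (adjusted p = 0.0336, and 0.179 with the length offset). Of the 12 tested cholangiocyte markers Sox4 was called lower, with 13.5, 7.23 and 12.3 CPM against 74.2, 99.7 and 184 CPM (log2 fold change -3.43 ± 0.43, adjusted p = 0.00458). Sox9, the other duct factor, had 108, 156 and 74.8 CPM against 52.7, 201 and 105 CPM. The part of other cell types in the results above was not tested.

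Of the 12 largest rises and 12 largest falls among called genes without overlap and with a mean of at least 10 CPM, 7 that belong to none of the lists above are given. Capn12, a calpain protease, had 52.7, 38.7 and 43.5 CPM against 2.10, 2.54 and 1.23 CPM (log2 fold change 4.51 ± 0.32, adjusted p = 0.00129), with a transcript of 2828 nt and the same size of change with the offset (4.52). Upk3a and Ly6d, a urothelial and a squamous surface protein, had 5.68, 0.613 and 88.7 and 38.3, 5.46 and 142 CPM in libraries 4 to 6, with most of the level in library 6, against at most 0.313 and 2.35 CPM in libraries 1 to 3 (adjusted p = 0.0436 and 0.0332), and each was called in 1 of the 6 fits that left out a library. Dab1, an adaptor of reelin signalling, averaged 13.2 ± 5.66 against 0.402 ± 0.454 CPM (adjusted p = 0.0157). Among the falls, Pitx1, a hindlimb homeobox factor, had 0.231, 0.307 and 0.268 CPM against 16.2, 85.0 and 2.92 CPM (log2 fold change -7.00 ± 1.42, adjusted p = 0.0170, and -5.14 without library 2). Aldh3a1, an aldehyde dehydrogenase, had 17.8, 28.02 and 18.9 CPM against 641, 164 and 362 CPM (-4.17 ± 0.55, adjusted p = 0.00509), and Inhba, the activin A subunit, averaged 0.628 ± 0.395 against 12.6 ± 8.47 CPM (adjusted p = 0.0204). The filter kept Pitx1 and Inhba through libraries 1 to 3, and Upk3a, Ly6d and Dab1 through libraries 4 to 6. This favours calls toward the set where each is high, so these calls are a description only.

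Tsix, the antisense partner of Xist on the X chromosome, separated the sets. Its transcript of 4306 nt falls in the length class of 4000 nt or more, whose median log2 fold change was -0.29. Tsix was also called lower with the length offset (edgeR adjusted p = 0.00169). It had 4.02, 3.801 and 4.73 CPM in libraries 4 to 6 and 83.1, 67.3 and 83.2 CPM in libraries 1 to 3 (log2 fold change -4.21 ± 0.18, adjusted p = 0.00105), while Xist had 1097, 706 and 1007 CPM against 1406, 1204 and 1306 CPM (adjusted p = 0.135). As a percent of Xist, Tsix stood at 0.458 ± 0.0868 in libraries 4 to 6 and at 5.96 ± 0.393 in libraries 1 to 3 (SD, n = 3 each; exact 2-sided permutation p = 0.1, the smallest that 3 against 3 allows). The genes overlap on opposite strands, and whether the authors' counting used the strand is not given in the sources used here, so reads of the pair may be shared.

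The same genes were set beside the other groups on the scale of all 28 libraries, on which libraries 4 to 6 averaged 56.3 CPM for Rn7sk, 828 for Rps29, 570 for Mt2, 247 for Junb and 19971 for Apoa1. Libraries 1 to 3 averaged 0.698, 30.0, 31.3, 2118 and 3989 CPM for those genes. Foxa3 iHep cells also divided for these genes, with 1 library on one side. Their libraries 2 to 6 ran from 37.2 to 72.5 CPM for Rn7sk, from 425 to 831 for Rps29, from 448 to 605 for Mt2, from 135 to 586 for Junb and from 16334 to 19763 for Apoa1, while their library 1 alone read 0.959, 58.7, 12.9, 1348 and 7588 CPM. Hnf4a did not place library 1 with Foxa1 libraries 1 to 3. It read 548 CPM there, and 612 to 1505 CPM in Foxa3 libraries 2 to 6. Foxa1 libraries 4 to 6 had 363 to 670 CPM of Hnf4a, and libraries 1 to 3 had 108 to 314 CPM. The 4 Foxa2 iHep libraries ran from 0 to 2.16 CPM for Rn7sk, from 23.8 to 32.3 for Rps29, from 22.6 to 83.5 for Mt2, from 1688 to 3385 for Junb and from 1827 to 6319 for Apoa1. The 48 h Foxa1 cells averaged 20.5 CPM for Rn7sk and 29.9 CPM for Junb, and MEF 1.33 and 804 CPM. Of the 3558 genes called between the Foxa1 sets, 3172 (89.2%) differed with the same sign between libraries 2 to 6 and library 1 of the Foxa3 iHep cells. That comparison has 1 library on one side and no test. Among called ribosomal protein genes the sign was the same for 64 of 68, among liver genes for 13 of 19, and among the 3 matrix genes for 0. The share over all genes tested, called or not, was not counted, so these counts are a description without a baseline.

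**Figure D5:**
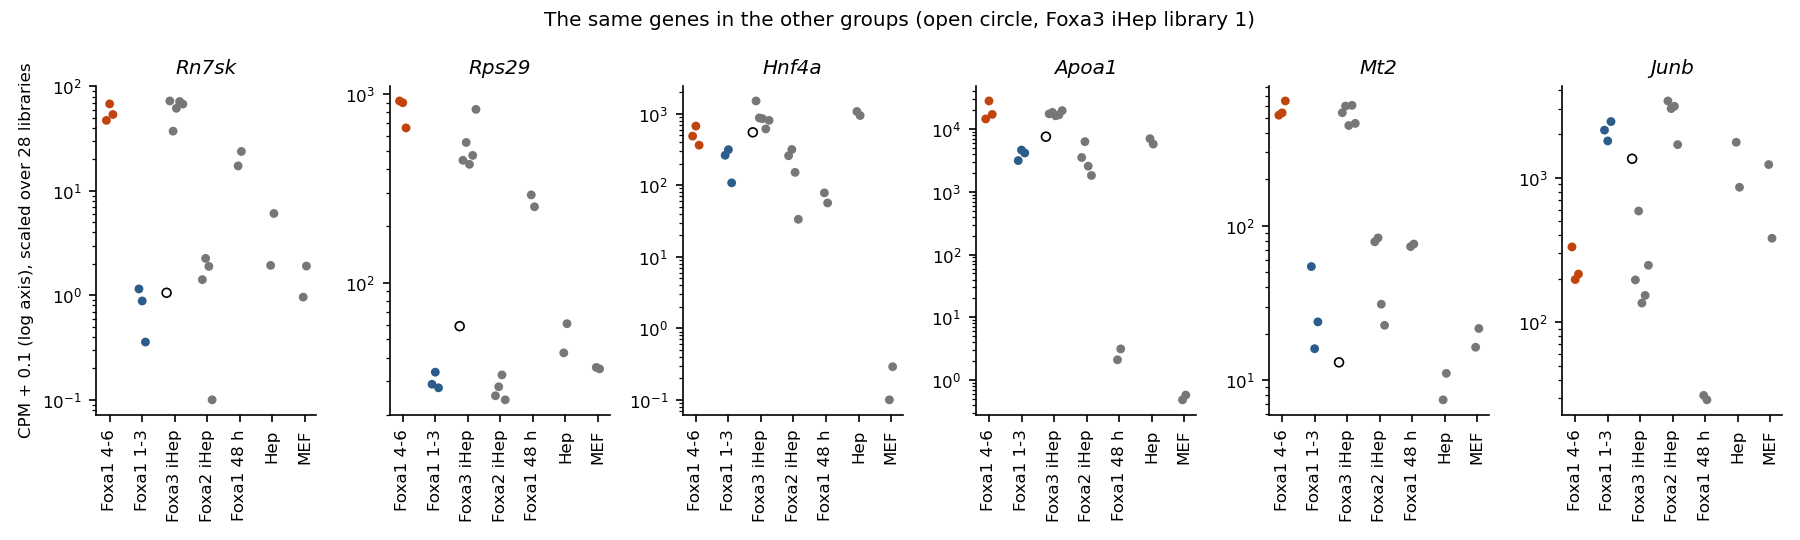
Levels of genes in each library of the other groups (y axis, CPM + 0.1 on a log axis, scaled over 28 libraries; x axis, group; orange, Foxa1 iHep libraries 4 to 6; blue, 1 to 3; grey, other groups; open circle, Foxa3 iHep library 1). Foxa3 iHep libraries 2 to 6 lie in the range of libraries 4 to 6 or near it for Rn7sk, Mt2 and Apoa1, and the open circle lies nearer to libraries 1 to 3 for Rn7sk, Rps29, Mt2 and Junb. For Hnf4a the open circle lies within the range of libraries 4 to 6.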

How the data were processed

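RNA was taken with a micro column kit and sequenced after a stranded mRNA preparation, per the labels' protocols. BWA 0.7.12 and an mm9 build are named in the submitters' processing notes. No source used here names the quantifier, its annotation or its use of strand. The authors deposited, over 30710 transcripts, an expected count, an FPKM value (per length and library size) and the fraction of the library, which was not used here. Of the transcripts, 30190 matched a RefSeq name and 181 a GENCODE name, and 339 stayed unnamed and held 0.827% to 3.21% of reads in the 6 libraries.

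Expected counts as the authors deposited them were summed per gene, rounded to whole numbers and tested with edgeR 4.0.16 (R 4.3.3), by the robust quasi-likelihood test on the 6 Foxa1 iHep libraries, with TMM scaling, filterByExpr and Benjamini-Hochberg adjustment at 0.05, which leaves 4 residual degrees of freedom. Of 23712 genes, 13692 passed the filter. The SE of a log2 fold change is its size over the root of the F statistic. The length offset subtracts, per library, a loess curve (span 0.4) of the log2 CPM deviation on log2 transcript length. DESeq2 1.42.0, limma 3.58.1 on log2(FPKM + 1) and other settings were alternatives. The test was checked on simulated counts. The split, the members and the 38 gene lists were chosen with earlier results of these data known. Genes were named by rule: the introduced factors, Rn7sk and Rps29, the 12 largest rises and falls without overlap and with a mean of at least 10 CPM, up to 4 called and 4 most abundant members of a list, and the shortest and longest ribosomal protein transcripts. Cldn3, Acaa1b, Asns and Ier5 were added after their values were seen. Promoter windows came from RefSeq on GRCm38.p6, which differs from the build of the files, and no coordinate was moved between builds. A result on 1 liver gene is not reported here.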

Additional observations from a re-analysis of the deposited data

Results flagged for a closer look

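In the 6 Foxa3 iHep libraries, 1 library stood apart for 4 genes by the ratio of its gap to the group's range, on the scale of all 28 libraries. Apoa1 was lowest in library 1 at 7588 CPM, Mt2 was lowest there at 12.9 CPM, and Junb was highest there at 1348 CPM. Hnf4a was highest in library 2 at 1505 CPM. Chance flags about 1 in 20 groups in this way. The Foxa1 sets hold 3 libraries each, too few for this comparison.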

How the results depend on the processing

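No paired analysis was possible because libraries 4 to 6 and libraries 1 to 3 share no replicate number. Leaving out a library gave 1776 to 3853 calls, 943 to 2007 higher and 833 to 1846 lower. In the same fits the calls ran from 61 to 70 higher and 0 to 0 lower for ribosomal proteins, 33 to 49 and 0 to 1 for mitochondrial ribosomal proteins, 28 to 50 and 1 to 3 for respiratory subunits, 4 to 18 and 3 to 15 for liver genes, 0 to 9 and 0 to 1 for epithelial genes, 0 to 0 and 0 to 9 for matrix genes, and 1 to 1 and 5 to 11 for immediate early genes. The length class medians ran from 1.41 to 1.65 (under 500 nt), 0.76 to 0.90, 0.24 to 0.34, -0.069 to -0.014 and -0.32 to -0.26 (4000 nt or more). The difference in share of reads ran from 4.93 to 6.47 percentage points for ribosomal proteins and from 2.12 to 2.42 for transcripts under 500 nt. A fit of all 28 libraries called 5587 genes, 3204 of them lower, with 1 ribosomal, 4 mitochondrial ribosomal, 21 liver, 2 epithelial and 11 matrix genes lower, 21 liver, 7 epithelial and 1 matrix gene higher, and class medians of 1.37, 0.68, 0.11, -0.14 and -0.39, against a median of -0.11 over all genes. DESeq2's Wald test called 1 ribosomal, 4 mitochondrial ribosomal, 18 liver and 12 matrix genes lower and 18 liver, 9 epithelial and 1 matrix gene higher, and limma called 3 mitochondrial ribosomal genes lower. The length offset gave 3 ribosomal, 5 mitochondrial ribosomal, 15 respiratory and 0 epithelial genes lower, 28 mitochondrial ribosomal and 15 respiratory genes higher, class medians of 0.11, -0.055, -0.016, -0.029 and -0.018, and a log2 fold change of -0.023 for Rpl38. With no filter the medians of the 3 classes from 500 to under 4000 nt were 0.72, 0.22 and -0.091. Library sizes from long transcripts gave 0.33 for the class from 1000 nt and -0.0030 for the class from 2000 nt, and DESeq2's size factors gave -0.060 for that class. The causes of these moves were not tested. Without a library in turn, Cdx2 ran from -0.35 to 0.81 and Vil1 from -0.71 to 2.08, each positive and called without library 2. Of the 93 tested genes named here, 1299 values under alternatives gave 1141 on the same side of the threshold in the same direction, 146 no longer past it, 9 newly past it and 3 reversed. Apob, Asns, Col1a2, Cyp1b1, Fah, Hspa5, Inhba, Irf7, Kng1, Ly6d, Mal2, Ugt1a1 and Upk3a were called in 1 of the 6 fits that left out a library, and Cxcl10 and Prox1 in none. Small read numbers limit Fbp1, Rmrp and Upk3a in libraries 1 to 3.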
